A study of Mus musculus with 9 samples.

Results

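The expression of 10 genes of MHC class II antigen presentation was examined in mouse B cells: the class II chain genes H2-Aa, H2-Ab1 and H2-Eb1, the invariant chain gene Cd74, the transactivator gene Ciita, the peptide editor genes H2-DMa, H2-DMb1 and H2-DMb2, and the editor's inhibitor genes H2-Oa and H2-Ob. They were taken by gene symbol from a table of 17596 genes, and all 10 were found and passed the filter on low values (mean FPKM of 1 or more) that left 10823 genes for testing. RNA sequencing was performed on 9 libraries of primary splenic B cells from mice of 6 to 8 weeks, and values are FPKM (fragments scaled to transcript length in kilobases and to the mapped fragments of the library). Mb1Cre mice, which carry Cre under the B lineage promoter of Mb1 (Cd79a), were the control, and Mct1f/fMb1Cre mice carry in addition 2 floxed alleles of Mct1 (made on a C57BL/6J background), from which Cre removes the segment from exon 1 to intron 3 in B lineage cells. Mct1, listed in the table as Slc16a1, encodes a monocarboxylate transporter. Untreated cells (day 0) gave 2 Mb1Cre and 2 Mct1f/fMb1Cre libraries, and cells cultured for 3 days in the presence of 10 μg/ml LPS and IL-4 at 50 ng/ml, which induce class switching in vitro, gave 2 Mb1Cre and 3 Mct1f/fMb1Cre libraries. Both genotypes carry Cre, and no unstimulated culture of 3 days was analysed here, so activation and time in culture cannot be told apart. Nothing states that libraries of a group came from separate mice, and p values therefore measure only the spread between libraries, which may be technical.

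MHC class II molecules are pairs of an alpha and a beta chain that carry peptides of engulfed proteins to the surface of B cells, dendritic cells and macrophages, where CD4+ T cells read them. In the endoplasmic reticulum the invariant chain (CD74) fills the peptide groove, and proteases of the endosome later trim it to a fragment called CLIP. The editor H2-DM exchanges CLIP for peptides that bind well, and H2-O, which is typical of B cells, binds to H2-DM and inhibits it. CIITA does not bind DNA itself but joins the factors RFX, CREB and NF-Y, which sit on the X and Y boxes upstream of class II, invariant chain, H2-DM and H2-O genes.

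Of the 10 genes, 8 lie within 224.3 kb of chromosome 17 (GRCm38, GENCODE annotation, 34092340 to 34316674). The Y box, named above, is shown here, and its letters are not particular to these promoters. RefSeq windows on GRCm38.p6, from 250 bases before to 50 bases after an annotated start, were matched for 7 of the 10 genes (not for H2-Ab1, Cd74 or Ciita). The letters TGATTGG, searched on both strands, were found on the gene's strand in the windows of 6 genes, between 45 and 92 bases before the start, and in 7.82% of all 32851 windows. The letters AACNNATGA, taken as a core of the X box after these sequences had been seen and therefore only a description, stood 17 to 20 bases before the Y box in H2-Eb1, H2-Ob, H2-DMb1 and H2-DMb2. They occur in 2.85% of all windows, and stand 10 to 30 bases before a Y box in 7 windows (0.0213%). The 2 windows of H2-DMa (chr17:34122582-34122881 and chr17:34125268-34125567) hold neither of these runs of letters. Both lie inside the GENCODE span of the gene, which starts at 34119541, and the first overlaps Brd2. No window at that start was searched, so the absence holds for these windows only. Below, 65 bases and the Y box are printed from 5′ to 3′ on the gene's strand for 5 genes, with the Y box and, where present, the letters AACNNATGA in capitals. No other form of the X box was searched, so a stretch without the second run of capitals may still hold one. The stretches are chr17:34287867-34287938 (minus strand, H2-Aa), chr17:34305741-34305812 (plus, H2-Eb1), chr17:34145092-34145163 (plus, H2-DMb2), chr17:34092269-34092340 (plus, H2-Oa) and chr17:34238781-34238852 (plus, H2-Ob). In the annotation they are upstream of the genes, except that the H2-DMb2 stretch lies in an intron of a longer H2-DMb2 transcript and the H2-Oa stretch ends on the first annotated base of the gene. The H2-DMb1 stretch falls mostly in an annotated untranslated region and is not printed.
H2-Aa: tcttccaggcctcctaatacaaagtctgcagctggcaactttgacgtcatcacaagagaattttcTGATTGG
H2-Eb1: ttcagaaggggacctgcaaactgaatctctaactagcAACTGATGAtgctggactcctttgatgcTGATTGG
H2-DMb2: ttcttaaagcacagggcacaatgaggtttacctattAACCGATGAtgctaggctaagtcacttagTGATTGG
H2-Oa: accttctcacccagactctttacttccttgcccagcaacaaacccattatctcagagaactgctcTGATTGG
H2-Ob: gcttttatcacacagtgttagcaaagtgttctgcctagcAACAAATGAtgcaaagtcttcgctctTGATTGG

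Slc16a1, the targeted gene, had 22.6 and 22.9 FPKM in the Mb1Cre libraries of day 3 against 10.8, 9.81 and 9.50 FPKM in the Mct1f/fMb1Cre libraries, and between 3.71 and 4.33 FPKM in all 4 libraries of day 0, where the genotype rests on the labels. No read counts are part of the values and depth was not derived from them, so no limit from counting is given. The number of libraries limits the precision. Fold changes were taken on log2(FPKM + 1) without further scaling, tested with limma across all 10823 genes, and called where the Benjamini-Hochberg adjusted p was under 0.05 and the log2 fold change exceeded a fold limit of 0.5 in either direction. Between the days the scaling moved all genes: the median log2 fold change of all tested genes was -0.12 in Mb1Cre and -0.14 in Mct1f/fMb1Cre as deposited, -0.31 and -0.30 after scaling to a common total, 0.06 and 0.06 by median-of-ratios scaling, and 0.01 and 0.02 by quantile normalization, and the share of called genes that were higher on day 3 in Mb1Cre was 42.9%, 32%, 55.4% and 50.8%, respectively. The B cell marker gene Cd79a was high in all 9 libraries (502 to 1714 FPKM). Day 0 libraries also held markers of other cells that are known to express class II. The 6 macrophage and monocyte markers summed to 910 to 1160 FPKM on day 0 (Csf1r 76.1 to 91.0, Adgre1 21.0 to 27.0) and to 21.0 to 36.6 FPKM on day 3, and the 6 dendritic cell markers to 74.2 to 84.7 and to 10.1 to 23.1 FPKM, with no marker of either list at 0 in every library of a group. On day 3, however, 4 of the dendritic cell markers were under 1 FPKM in every library. Ddx3y, a Y-linked gene, was at 31.1 FPKM in 1 library of day 0 (Mct1f/fMb1Cre replicate 1, which also had the highest neutrophil marker sum, 875 FPKM), at 0.02 to 0.24 FPKM in the other 3, and at 14.7 to 16.9 FPKM in all 5 libraries of day 3. By this gene the sex of the mice differed between the days in the Mb1Cre libraries, so that sex and activation cannot be told apart there, and in Mct1f/fMb1Cre cells 1 of the 2 libraries of day 0 was like those of day 3 in holding Y-linked RNA.

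Compared per kilobase, the class II genes spanned a wide range of levels on day 0. Cd74 was the gene with the highest FPKM of the whole table in each of the 4 libraries of day 0 and the second highest in each of the 5 of day 3. In Mb1Cre B cells of day 0 the mean levels in FPKM ran from Cd74 (10600) through H2-Aa (3074), H2-Ab1 (2634), H2-Eb1 (1192), H2-DMb2 (628), H2-Ob (370), H2-Oa (234), H2-DMa (233) and H2-DMb1 (194) to Ciita (75.4). Of these neighbours, only H2-Oa and H2-DMa overlapped between their libraries. On day 3 the order in Mb1Cre cells was Cd74, H2-Ab1, H2-Aa, H2-Eb1, H2-DMb2, H2-DMa, H2-DMb1, H2-Ob, H2-Oa and Ciita, with means from 6528 to 50.9 FPKM, and there H2-Ab1 and H2-Aa overlapped. The order was the same in Mct1f/fMb1Cre cells on day 0, and on day 3 it differed only in the overlapping H2-Aa and H2-Ab1. Together the 10 genes took 3.82% to 4.03% of the summed FPKM of a library on day 0 and 2.16% to 2.39% on day 3. Within a group, the coefficient of variation of a member had a median of 2.35% and reached 11.9% for Ciita in Mb1Cre cells of day 0.

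**Figure D1:**
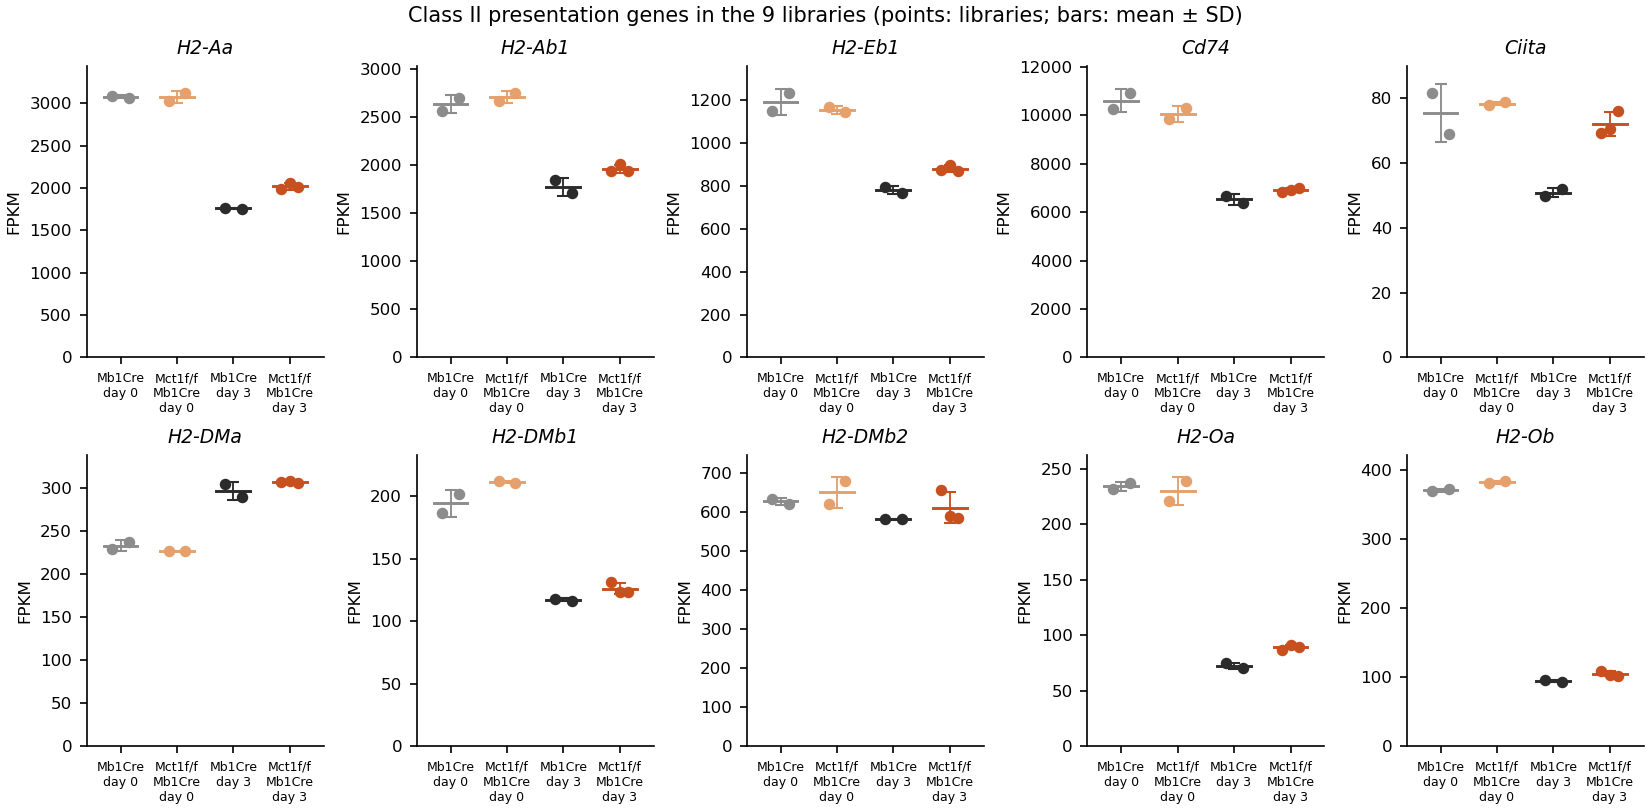
Expression (FPKM, linear axes from 0) of the 10 class II presentation genes in the 4 groups. Points are libraries and bars give the mean ± SD (n = 2, 2, 2 and 3 libraries). H2-Oa and H2-Ob had 70.5 to 109 FPKM on day 3 and 221 to 383 FPKM on day 0, and H2-DMa was the member with higher values on day 3.

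The 3 class II chain genes were lower after 3 days of LPS and IL-4. H2-Aa (gene ID 14960, chr17:34282744-34287823, the alpha chain of I-A) had 3087 and 3062 FPKM in Mb1Cre and 3022 and 3124 FPKM in Mct1f/fMb1Cre cells on day 0, and 1763 and 1753 FPKM in Mb1Cre and 1983, 2064 and 2007 FPKM in Mct1f/fMb1Cre cells on day 3. H2-Ab1 (14961, chr17:34257689-34269419, the beta chain of I-A) had 2567 and 2701, then 2662 and 2753 FPKM on day 0, and 1842 and 1706, then 1939, 2009 and 1937 FPKM on day 3, in the same order of groups. H2-Eb1 (14969, chr17:34305867-34316674, the beta chain of I-E) had 1150 and 1235, then 1170 and 1143 FPKM on day 0, and 795 and 767, then 873, 898 and 870 FPKM on day 3. In each of these genes every library of day 3 was below every library of day 0, and the days did not overlap. The share of all tested genes with such a separation of the days is not given, here or for the genes below. It is therefore a description only. At an adjusted p under 0.05 from limma, 47.5% of all tested genes were lower in Mb1Cre and 49.1% in Mct1f/fMb1Cre cells. In Mb1Cre cells the log2 fold change was -0.81 for H2-Aa (SE 0.0498, adjusted p = 3.86e-08 from limma), -0.57 for H2-Ab1 and -0.61 for H2-Eb1, and all 3 were called. In Mct1f/fMb1Cre cells it was -0.61 for H2-Aa, which was called, and -0.46 and -0.39 for H2-Ab1 and H2-Eb1, which had adjusted p values of 6.38e-06 and 8.68e-06 from limma but lay within the fold limit. By median-of-ratios scaling H2-Ab1 (-0.36) and H2-Eb1 (-0.40) were no longer called in Mb1Cre cells, nor was H2-Aa (-0.39) in Mct1f/fMb1Cre cells. H2-Aa had 1.13 to 1.20 times the level of H2-Ab1 on day 0 and 0.957 to 1.04 times on day 3. H2-Ea, the gene of the I-E alpha chain, which is defective in C57BL/6 mice, had at most 0.6 FPKM and was not tested. Reads of H2-Eb1 and its paralogue H2-Eb2 can be told apart (no run of 50 bases shared between the transcripts compared), whereas an antisense gene overlaps H2-Eb1 and it is not stated whether counting used strand.

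Cd74 (16149, chr18:60803848-60812652), which encodes the invariant chain, was lower on day 3 as well. It had 10266 and 10929 FPKM in Mb1Cre and 9829 and 10293 FPKM in Mct1f/fMb1Cre cells on day 0. On day 3 the values were 6683 and 6374 FPKM, and 6846, 6924 and 6997 FPKM. The days did not overlap in either genotype. The log2 fold change was -0.70 (SE 0.0647, adjusted p = 1.27e-06 from limma) in Mb1Cre and -0.54 (SE 0.059, adjusted p = 5.17e-06) in Mct1f/fMb1Cre cells, and it was called in both. By median-of-ratios scaling it was -0.49 and -0.32 and called in neither. The ratio of Cd74 to the mean of the 3 chain genes was 4.30 to 4.69 on day 0 and 4.18 to 4.56 on day 3. For the test, the mean of the log2(FPKM + 1) values of the 3 chain genes was subtracted from that of Cd74. This is not the log2 of the FPKM ratio. The log2 ratio so formed differed between the days by -0.05, at 2.23 ± 0.0530 (SD, n = 5) on day 3 and 2.28 ± 0.0484 (SD, n = 4) on day 0. It did not pass an exact two-sided permutation test over libraries (p = 0.175, and 0.175 when adjusted over the 3 ratios computed). By genotype, the FPKM ratio of all 5 Mct1f/fMb1Cre libraries, at 4.18 to 4.40, lay below that of the 4 Mb1Cre libraries, at 4.53 to 4.69. That split was seen after the values were known and was not tested.

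Ciita (12265, chr16:10480059-10528418), is the gene of the class II transactivator. On day 0 it had 81.7 and 69.1 FPKM in Mb1Cre and 78.0 and 78.8 FPKM in Mct1f/fMb1Cre cells, and the genotypes overlapped. On day 3 it had 49.9 and 51.9 FPKM in Mb1Cre cells against 69.4, 70.5 and 76.2 FPKM in Mct1f/fMb1Cre cells. The Mct1f/fMb1Cre libraries of day 3 were thus above both Mb1Cre libraries of that day and within the range of the 4 libraries of day 0. Its log2 fold change with activation was -0.55 (SE 0.0725, adjusted p = 2.48e-05 from limma) in Mb1Cre cells, where it was called, and -0.12 (SE 0.0661, adjusted p = 0.106) in Mct1f/fMb1Cre cells. By median-of-ratios scaling the first was -0.34 and no longer called, and the second was 0.09. Dexi, which overlaps Ciita on the opposite strand, had 30.3 and 30.8 FPKM in Mb1Cre and 32.5, 34.7 and 34.3 FPKM in Mct1f/fMb1Cre cells on day 3.

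The 3 genes of the editor H2-DM did not move together. H2-DMa (14998, chr17:34119541-34139101, the alpha chain) had 229 and 237 FPKM in Mb1Cre and 227 in both Mct1f/fMb1Cre libraries of day 0, and 304 and 289, then 306, 307 and 306 FPKM on day 3. Every library of day 3 was above every library of day 0. Its log2 fold change was 0.35 (SE 0.042, adjusted p = 1.26e-05 from limma) in Mb1Cre and 0.43 (SE 0.0383, adjusted p = 8.33e-07) in Mct1f/fMb1Cre cells, within the fold limit, and by median-of-ratios scaling it was called at 0.56 and 0.65. H2-DMb1 (14999, chr17:34153072-34160230), a beta chain gene, had 187 and 202, then 212 and 210 FPKM on day 0, and 118 and 116, then 131, 123 and 123 FPKM on day 3. It fell by 0.72 and 0.74 on the log2 scale in Mb1Cre and Mct1f/fMb1Cre cells and was called in both. H2-DMb2 (15000, chr17:34143307-34151555), the second beta chain gene, had 634 and 622, then 622 and 678 FPKM on day 0, and 581 and 582, then 657, 590 and 585 FPKM on day 3. Its days overlapped in Mct1f/fMb1Cre cells, and its log2 fold changes of -0.11 and -0.09 (adjusted p = 0.123 and 0.158 from limma) turned to 0.10 and 0.13 by median-of-ratios scaling. H2-DMb2 had 2.94 to 3.40 times the level of H2-DMb1 on day 0 and 4.76 to 5.02 times on day 3. The transcripts compared of these paralogues are 94.4% identical over 1255 aligned bases and share 27.2% of their runs of 50 bases, so the division of reads between them, and with it each gene's level, is uncertain. H2-DMa overlaps Brd2 on the opposite strand (Brd2 106 to 125 FPKM in the 9 libraries).

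H2-Oa and H2-Ob, the alpha and beta chain genes of the inhibitor H2-O, had the largest changes of the 10 genes. H2-Oa (15001, chr17:34092340-34095234) had 231 and 237 FPKM in Mb1Cre and 221 and 239 FPKM in Mct1f/fMb1Cre cells on day 0, and 74.5 and 70.5, then 87.0, 90.8 and 89.6 FPKM on day 3. H2-Ob (15002, chr17:34238903-34254414) had 369 and 371, then 380 and 383 FPKM on day 0, and 95.7 and 92.8, then 109, 103 and 102 FPKM on day 3. In both genes the days lay far apart, and on day 3 the Mct1f/fMb1Cre libraries were above both Mb1Cre libraries. H2-Oa had a log2 fold change of -1.68 (SE 0.0495, adjusted p = 9.73e-11 from limma) in Mb1Cre and -1.35 (SE 0.0452, adjusted p = 2.24e-10) in Mct1f/fMb1Cre cells, and its level on day 3 was 31.0% and 38.8% of that on day 0. H2-Ob had -1.96 (SE 0.0436, adjusted p = 1.39e-11 from limma) and -1.86 (SE 0.0398, adjusted p = 1.02e-11), and kept 25.5% and 27.4% of its level. A gene antisense to H2-Oa overlaps its whole length.

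The ratio of H2-DMa to each inhibitor gene within a library follows from the values above and is given as a description, with no test. H2-DMa stood at 0.952 to 1.03 times H2-Oa in the 4 libraries of day 0, and at 4.08 and 4.10 times in the Mb1Cre and 3.52, 3.39 and 3.42 times in the Mct1f/fMb1Cre libraries of day 3. Relative to H2-Ob it stood at 0.593 to 0.639 on day 0, and at 3.18 and 3.11, then 2.82, 3.00 and 3.00 on day 3. The days did not overlap in either ratio. The log2 ratio of H2-Oa to H2-DMa was -1.87 ± 0.137 (SD, n = 5) on day 3 and 0.01 ± 0.0465 (SD, n = 4) on day 0, a difference of -1.88. The log2 ratio of H2-Ob to H2-DMa was -1.58 ± 0.0659 (SD, n = 5) and 0.71 ± 0.0499 (SD, n = 4), a difference of -2.29. These ratios within a library do not depend on the scaling to a total or a median. The days were also compared within each genotype: the difference for H2-Oa was -2.02 in Mb1Cre and -1.79 in Mct1f/fMb1Cre libraries, and that for H2-Ob was -2.31 and -2.29.

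**Figure D2:**
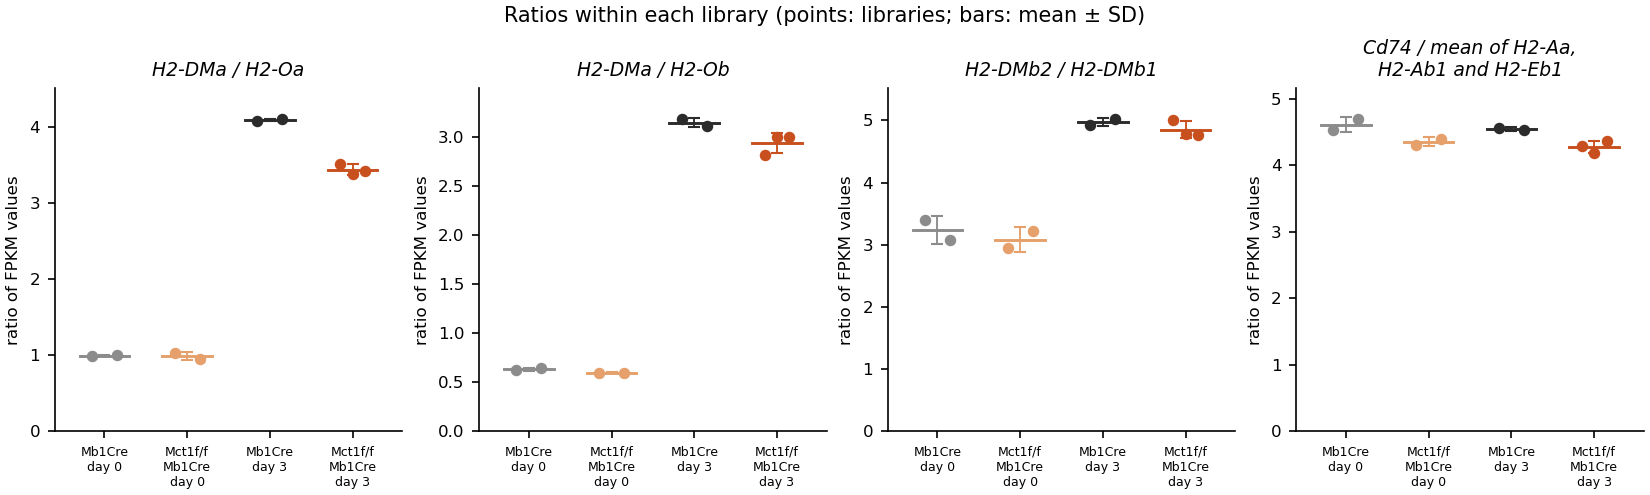
Ratios of FPKM values within each library for H2-DMa to H2-Oa, H2-DMa to H2-Ob, H2-DMb2 to H2-DMb1, and Cd74 to the mean of H2-Aa, H2-Ab1 and H2-Eb1 (linear axes from 0). Points are libraries and bars give the mean ± SD. The ratio of H2-DMa to H2-Oa was 0.952 to 1.03 on day 0 and 3.39 to 4.10 on day 3, and that of Cd74 to the chains was 4.30 to 4.69 and 4.18 to 4.56.

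Counted over the list, 8 of the 10 genes were called lower on day 3 in Mb1Cre cells, where 33.0% of all tested genes were called lower and 24.8% higher. In Mct1f/fMb1Cre cells 5 of 10 were called lower (H2-Aa, Cd74, H2-DMb1, H2-Oa and H2-Ob), against 33.2% of all tested genes called lower and 23.4% higher. At any size of change, 8 and 7 of the 10 were lower at an adjusted p under 0.05 from limma, against 47.5% and 49.1% of all tested genes. The median log2 fold change of the 10 was -0.65 in Mb1Cre and -0.50 in Mct1f/fMb1Cre cells, beside -0.12 and -0.14 over all tested genes. Relative to those medians, the members ran from -1.84 (H2-Ob) to 0.47 (H2-DMa) in Mb1Cre and from -1.72 to 0.57 for the same genes in Mct1f/fMb1Cre cells. By median-of-ratios scaling, the counts of called genes were 5 and 4, of which H2-DMa was called higher. After scaling to a common total or quantile normalization, 7 genes were called in Mct1f/fMb1Cre cells, H2-Ab1 and H2-Eb1 being added. The shares of all tested genes above are for the values as deposited. Those under the other scalings are not given, so the counts under them cannot be set against a background. In bulk RNA, fewer cells of a type and less RNA per cell cannot be told apart. Beside these decreases, 5 and 4 of 5 B cell markers were called lower in Mb1Cre and Mct1f/fMb1Cre cells (Cd79a -1.53 and -1.64), as were 6 of 6 macrophage and monocyte markers (Lyz2 -5.81 and -5.23) and 4 and 5 of 6 dendritic cell markers (Itgax -4.53 and -4.55). In Mb1Cre cells the dendritic cell markers Flt3 (0.39) and Zbtb46 (0.30) were higher within the fold limit (adjusted p = 0.00479 and 0.0137 from limma). In Mct1f/fMb1Cre cells Flt3 (-1.13) was called lower and Zbtb46 (-0.30) was not called. The markers of T and NK cells summed to 50.2 to 58.7 FPKM on day 0 and 5.92 to 7.46 FPKM on day 3, those of neutrophils to 291 to 875 and 0.32 to 3.07 FPKM, and those of plasma cells to 134 to 234 and 321 to 393 FPKM. The plasma cell markers went both ways in Mb1Cre and Mct1f/fMb1Cre cells. Xbp1 (2.00 and 1.82) and Prdm1 (1.65 and 1.85) were called higher and Sdc1 (-1.27 and -0.90) lower. Jchain was called higher in the first (0.79) and lower in the second (-0.65). The part of these other cells in the decreases of the class II genes was not tested, nor was that of the sex of the mice, which differed between the days in Mb1Cre cells by Ddx3y.

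**Figure D3:**
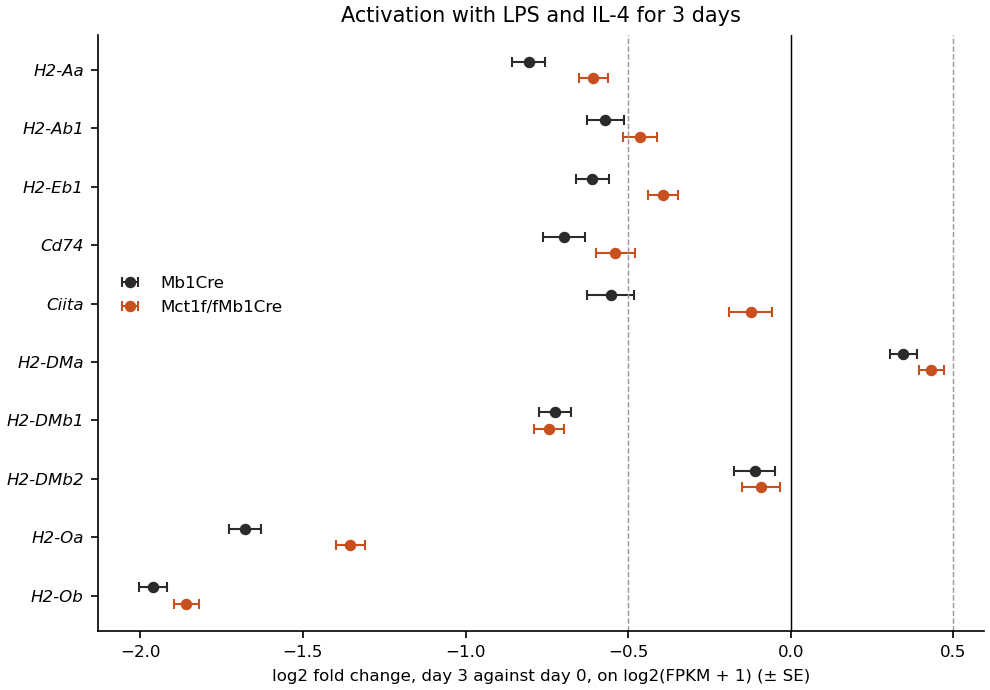
Log2 fold change of day 3 against day 0 on log2(FPKM + 1), with standard errors from limma, for the 10 genes in Mb1Cre (black) and Mct1f/fMb1Cre cells (orange). Dashed lines mark the fold limit of 0.5. H2-Ob (-1.96 and -1.86) and H2-Oa (-1.68 and -1.35) lie farthest to the left and H2-DMa (0.35 and 0.43) to the right, and by median-of-ratios scaling H2-DMb2 (0.10 and 0.13) and, in Mct1f/fMb1Cre cells, Ciita (0.09) cross to the right of 0.

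In the comparison of the genotypes on day 3 all 10 genes had higher values in Mct1f/fMb1Cre than in Mb1Cre cells, by small amounts. In each of the 10, the lowest of the 3 Mct1f/fMb1Cre libraries lay above the higher of the 2 Mb1Cre libraries, a pattern shown by 21.0% of all tested genes in this direction. None of the 10 was called by limma, against 2.42% of all tested genes called in either direction, and 7 of 10 had an unadjusted p under 0.05. No share of all tested genes is given beside this or the later counts of unadjusted p values. Those counts are therefore a description only. At any size of change, 5 were higher at an adjusted p under 0.05, against 6.03% of all tested genes higher and 9.21% lower. The median log2 fold change of the 10 was 0.15, and that of all tested genes was -0.01.

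Ciita had the largest of these differences. Its mean was 72.0 ± 3.64 FPKM (SD, n = 3) in Mct1f/fMb1Cre and 50.9 ± 1.41 FPKM (SD, n = 2) in Mb1Cre cells, 141% of the control, with a log2 fold change of 0.49 (SE 0.0661, adjusted p = 7.82e-04 from limma). It lay just inside the fold limit: it was called at 0.50 after scaling to a common total, at 0.51 by median-of-ratios scaling, and at 0.51 to 0.52 when Mb1Cre replicate 2 or Mct1f/fMb1Cre replicate 1 or 2 of day 3 was left out, so that the count of 0 called genes became 1. The inhibitor gene H2-Oa followed, at 89.1 ± 1.94 against 72.5 ± 2.85 FPKM (SD, n = 3 and 2), a log2 fold change of 0.29 (SE 0.0452, adjusted p = 0.00169 from limma). Ciita and H2-Oa kept an adjusted p under 0.05 in all 19 settings in which they were fitted.

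The other genes that passed the adjusted p were H2-Aa at 0.20 (SE 0.0455, adjusted p = 0.0147 from limma), H2-Eb1 at 0.17 (SE 0.0457, adjusted p = 0.0283) and H2-Ob at 0.15 (SE 0.0398, adjusted p = 0.0316). These 3 depended on the setting, with adjusted p values up to 0.0866, 0.178 and 0.196, each reached without Mb1Cre day 3 replicate 2, and none of them passed without Mb1Cre day 3 replicate 1 either (0.0831, 0.0875 and 0.0973) or without Mct1f/fMb1Cre day 3 replicate 2 (0.0574, 0.0893 and 0.0546) or 3 (0.0504, 0.0685 and 0.0526). Without Mct1f/fMb1Cre day 3 replicate 1, H2-Eb1 (0.0579) and H2-Ob (0.0812) did not pass. H2-Ab1 at 0.15 (adjusted p = 0.0867) and H2-DMb1 at 0.10 (adjusted p = 0.164) did not pass, although their unadjusted p values from limma were 0.018 and 0.0461. Cd74 at 0.08, H2-DMb2 at 0.07 and H2-DMa at 0.05 had adjusted p values of 0.387, 0.486 and 0.458 from limma. The 3 H2-DM genes and Cd74 thus had the smallest differences between the genotypes on day 3, and Ciita and the H2-O alpha chain the largest. The 10 genes took 2.36% to 2.39% of the summed FPKM in the Mct1f/fMb1Cre and 2.16% and 2.18% in the Mb1Cre libraries.

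On day 0 no difference between the genotypes in these genes passed the threshold used. In H2-DMb1 and H2-Ob both Mct1f/fMb1Cre libraries of day 0 lay above both Mb1Cre libraries, and in H2-DMa both lay below. The share of all tested genes with such a pattern on day 0 is not given here. None of the 10 was called by limma, against 0.277% of all tested genes, and 1 had an unadjusted p under 0.05 (H2-DMb1, log2 fold change 0.12, adjusted p = 0.394 from limma). The log2 fold changes ran from -0.07 for Cd74 to 0.12, with 5 of 10 above 0. Whether the difference on day 3 exceeded that on day 0 was tested by an interaction term for genotype and day. By that test, too, none of the 10 was called (3.23% of all tested genes were), and 4 had an unadjusted p under 0.05. At any size, 2 were higher at an adjusted p under 0.05, against 3.82% of all tested genes. These were Ciita (interaction 0.43 on the log2 scale, SE 0.0981, adjusted p = 0.0229 from limma) and H2-Oa (0.32, SE 0.0671, adjusted p = 0.0154). The adjusted p of Ciita rose to between 0.0541 and 0.0919 without Mct1f/fMb1Cre day 0 replicate 1, Mb1Cre day 3 replicate 1 or 2, or Mct1f/fMb1Cre day 3 replicate 3, and that of H2-Oa to 0.0669 without Mb1Cre day 3 replicate 2. The interactions of H2-Eb1 and H2-Aa were 0.22 and 0.20 (adjusted p = 0.0744 and 0.0926 from limma), and that of H2-Ob was 0.10 (adjusted p = 0.305). Since both days and both genotypes enter the interaction, it shares its libraries with the other comparisons.

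Markers of other cells that differed between the genotypes on day 3 are given beside these values. Among all tested genes, 2.42% were called in either direction in this comparison. At an adjusted p under 0.05 from limma, 6.03% were higher and 9.21% lower. The macrophage and monocyte markers summed to 21.0 and 22.8 FPKM in Mb1Cre and to 30.7 to 36.6 FPKM in Mct1f/fMb1Cre libraries, and 2 of 6 were called higher (Lyz2 0.71, from 10.0 and 11.5 to 16.8, 17.6 and 20.4 FPKM; Adgre1 0.68). The dendritic cell markers summed to 23.1 FPKM in both Mb1Cre libraries and to 10.1 to 11.3 FPKM in Mct1f/fMb1Cre libraries, and 2 of 6 were called lower (Flt3 -1.21 and Zbtb46 -0.60). The other 4 were under 1 FPKM in every library of either genotype, with Itgax at 0.36 to 0.45 FPKM in all 5 libraries. The sum on day 3 thus rests on Flt3 and Zbtb46. The 5 B cell markers summed to 1799 and 1813 FPKM in Mb1Cre libraries and to 1818 to 1893 FPKM in Mct1f/fMb1Cre libraries, which did not overlap. None of the 5 was called by limma, 3 had an unadjusted p under 0.05, and Cd22 had a log2 fold change of 0.35 with an adjusted p of 2.82e-04. The others had an adjusted p above 0.05 and went both ways. Ms4a1 (0.12) and Pax5 (0.13) were higher, and the most abundant markers of the list, Cd79a (-0.13) and Cd79b (-0.02), were lower. The 4 plasma cell markers summed to 379 and 393 FPKM in Mb1Cre and to 321 to 352 FPKM in Mct1f/fMb1Cre libraries, which did not overlap. Jchain had a log2 fold change of -0.47 (limma, adjusted p = 0.0377). Of the others, Xbp1, the most abundant, was lower (-0.11), while Sdc1 (0.17) and Prdm1 (0.19) were higher. None of those had an adjusted p under 0.05, so the markers of this list did not move together. The part of these cells in the differences of the class II genes was not tested.

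**Figure D4:**
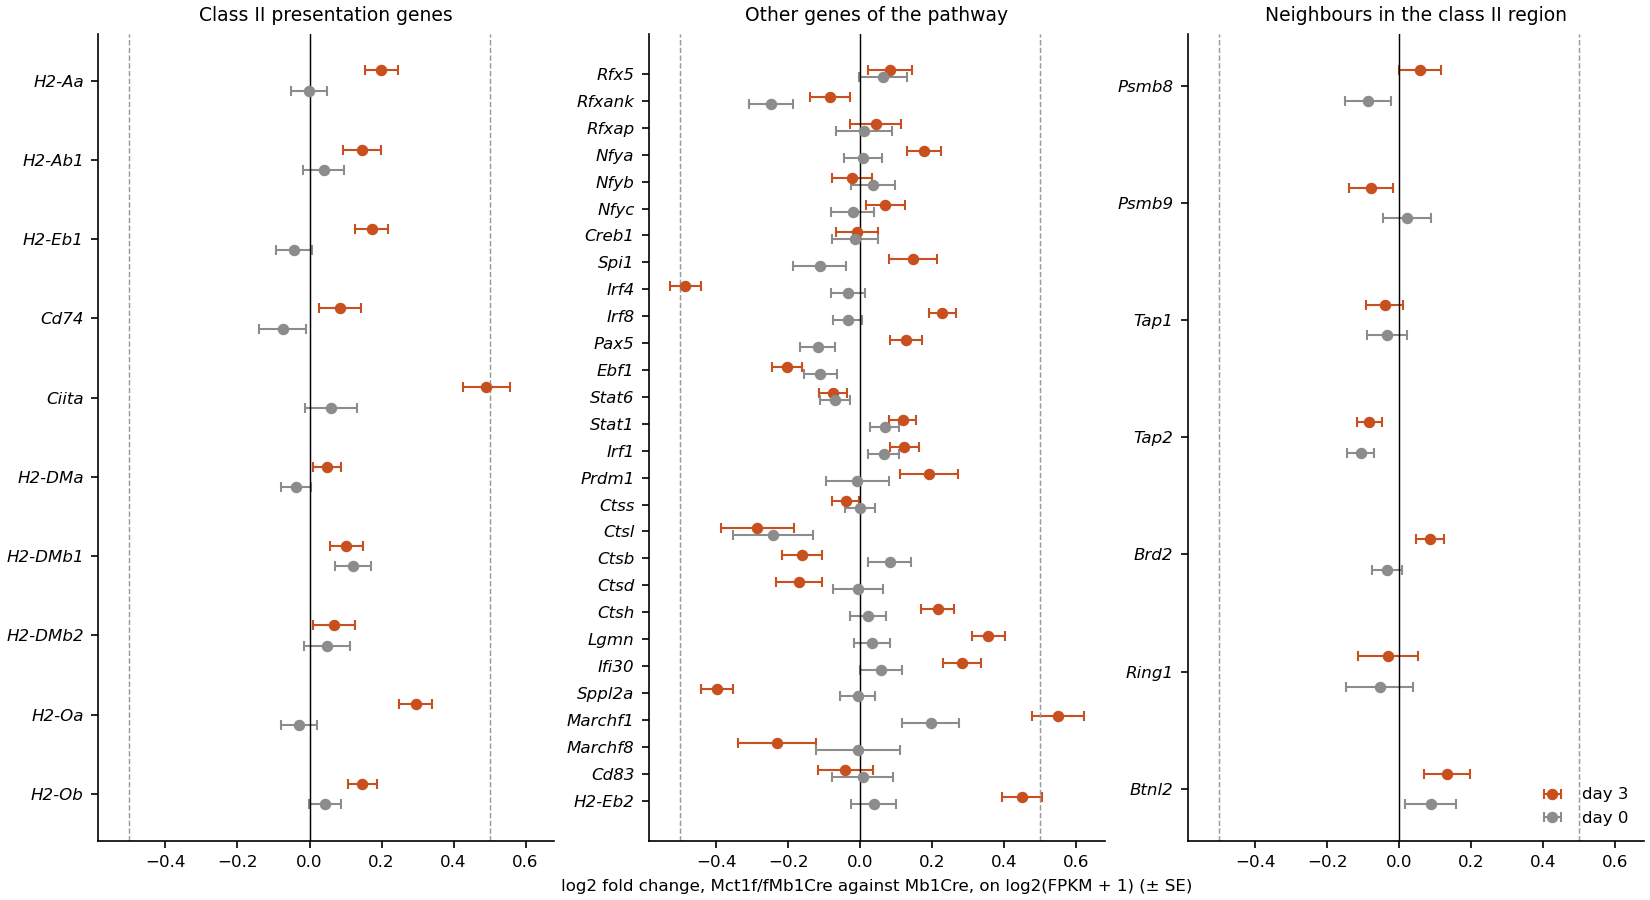
Log2 fold change of Mct1f/fMb1Cre against Mb1Cre on log2(FPKM + 1), with standard errors from limma, on day 3 (orange) and day 0 (grey), for the 10 class II presentation genes, 28 other genes of the pathway and 7 neighbours in the class II region. Dashed lines mark the fold limit of 0.5. On day 3 all 10 class II genes lie to the right of 0 (0.05 to 0.49), while the neighbours lie on both sides (-0.08 to 0.13).

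The other genes of the pathway were taken from lists, whose counts with activation stand beside the 33.0% of all tested genes called lower and 24.8% higher in Mb1Cre cells and the 33.2% and 23.4% in Mct1f/fMb1Cre cells. Their counts between the genotypes on day 3 stand beside 2.42% of all tested genes called in either direction. At an adjusted p under 0.05 from limma, 6.03% were higher and 9.21% lower. Of 7 genes of the complex on the X and Y boxes, 3 were called lower with activation in Mb1Cre cells: Rfx5 (-0.68) and Rfxank (-0.55), subunits of RFX, and Creb1 (-0.66). In Mct1f/fMb1Cre cells Rfx5 (-0.66) and Creb1 (-0.66) were called. Both counts are near the share of all tested genes. Between the genotypes on day 3, 1 of the 7 passed the adjusted p, Nfya, a subunit of NF-Y, at 0.18 (adjusted p = 0.0285 from limma), and 0 were called by limma, with 1 unadjusted p under 0.05.

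Among 9 regulators of Ciita, 2 were called higher with activation in Mb1Cre cells, Prdm1 (1.65), which encodes the repressor BLIMP1, and Irf4 (0.69), and 4 lower, among them Spi1 (-1.50), Ebf1 (-1.46) and Pax5 (-0.88). In Mct1f/fMb1Cre cells Prdm1 (1.85) was called higher and 4 were called lower, among them Ebf1 (-1.55), Spi1 (-1.25) and Stat6 (-0.84). These counts of 9, too, are near the shares of all tested genes. None of the 9 was called by limma between the genotypes on day 3, where 7 had an unadjusted p under 0.05. Irf4, a transcription factor of activated B cells, had 80.3 and 77.8 FPKM in Mb1Cre and 55.9, 55.2 and 57.5 FPKM in Mct1f/fMb1Cre cells on day 3, and 46.9 to 50.4 FPKM on day 0. The genotypes were clearly apart on day 3, with a log2 fold change of -0.49 (SE 0.0429, adjusted p = 5.54e-05 from limma). Irf8, its relative, had 240 and 244 against 277, 287 and 287 FPKM on day 3, a log2 fold change of 0.23 (adjusted p = 0.00208 from limma). Ebf1 was lower, at -0.20 (adjusted p = 0.00821). Prdm1 (0.19) and Pax5 (0.13) had adjusted p values of 0.141 and 0.078 from limma.

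Of 8 genes for the processing of antigen and invariant chain, 6 were called lower with activation in Mb1Cre cells and 5 in Mct1f/fMb1Cre cells, against 33.0% and 33.2% of all tested genes. The cathepsin genes Ctsb (-2.16 and -2.41), Ctsl (-1.86 and -1.90) and Ctsd (-1.11 and -1.27) had the largest decreases, and Ctss, the gene of the protease that makes CLIP in B cells, fell by 1.09 and 1.13 on the log2 scale. Sppl2a, which encodes the membrane protease that clears the stump of the invariant chain, was called higher in Mb1Cre cells (0.61) and lay within the fold limit in Mct1f/fMb1Cre cells (0.22). On day 3 Sppl2a had 43.5 and 43.1 FPKM in Mb1Cre and 32.9, 31.7 and 33.3 FPKM in Mct1f/fMb1Cre cells, a log2 fold change of -0.40 (adjusted p = 2.50e-04 from limma). Another 3 genes were higher in Mct1f/fMb1Cre cells at an adjusted p under 0.05, within the fold limit: Lgmn (0.36), Ifi30 (0.28), the gene of the lysosomal thiol reductase GILT, and Ctsh (0.22). Ctss did not pass at -0.04 (adjusted p = 0.539 from limma).

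Turnover genes showed the largest change of the pathway. Marchf1, which encodes a ubiquitin ligase that removes class II molecules from the surface, had 69.9 and 66.5 FPKM in Mb1Cre and 84.5 and 72.5 FPKM in Mct1f/fMb1Cre cells on day 0, and 4.34 and 4.22 against 7.04, 7.02 and 6.15 FPKM on day 3. It thus fell to a small part of its level in both genotypes (log2 fold change -3.71 and -3.36, both called) and was the 1 gene of these lists called between the genotypes on day 3 (0.55, SE 0.0728, adjusted p = 7.21e-04 from limma). That count over the lists is near the 2.42% of all tested genes called in that comparison. Cd83, whose product opposes MARCHF1, rose by 1.55 and 1.51 on the log2 scale with activation, with a genotype difference of -0.04 on day 3 (adjusted p = 0.795 from limma). Marchf8 had at most 1.63 FPKM.

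H2-Eb2, a paralogue next to H2-Eb1 (chr17:34325665-34341412), had 46.2 and 40.8, then 44.0 and 45.2 FPKM on day 0. On day 3 it had 17.8 and 18.9 FPKM in Mb1Cre against 24.8, 25.1 and 26.3 FPKM in Mct1f/fMb1Cre cells. It was called lower with activation (-1.20 and -0.79), and its genotype difference on day 3 was 0.45 (SE 0.0564, adjusted p = 5.02e-04 from limma), within the fold limit. Its interaction was 0.41 (adjusted p = 0.0138).

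Genes of the same region with other roles went both ways. Of 7 such neighbours, 4 were called higher with activation in each genotype: the immunoproteasome genes Psmb9 (1.61 and 1.51) and Psmb8 (0.98 and 1.12), and the peptide transporter genes Tap1 (0.94 and 0.94) and Tap2 (0.89 and 0.91). Ring1 (-0.85 and -0.82) was called lower. Btnl2 (-0.44 and -0.40) and Brd2 (-0.23 and -0.11) were lower at an adjusted p under 0.05 from limma but within the fold limit, beside the median of -0.12 and -0.14 over all tested genes. Psmb9 lies at chr17:34181987-34187764 and Tap2 at chr17:34203527-34216321, between H2-DMb1 and H2-Ob. None of the 7 passed the adjusted p between the genotypes on day 3 in limma, where 2 had an unadjusted p under 0.05, and 3 of the 7 log2 fold changes were above 0.

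The genes outside the list whose course over the 9 libraries was most like the mean of H2-Aa, H2-Ab1 and H2-Eb1 were Fbxo31 (a subunit of a ubiquitin ligase), Serf2, Samhd1 (a nucleotide hydrolase), Mtfr1l and Ftl1 (ferritin light chain). Likeness was the root mean square difference of log2(FPKM + 1), each gene centred on its own mean, over 9 libraries that share days and genotypes, and is a description only. It was 0.0307 for Fbxo31, 0.0357 for Serf2, 0.0365 for Samhd1, 0.0368 for Mtfr1l and 0.0419 for Ftl1, with a median of 0.370 over all tested genes. Samhd1, for instance, had 246 and 264, then 245 and 244 FPKM on day 0, and 158 and 158, then 176, 178 and 184 FPKM on day 3. On the same measure Cd74 was at 0.0521, H2-DMb1 at 0.102, Ciita at 0.197 and H2-DMb2 at 0.242. H2-Oa, H2-DMa and H2-Ob, at 0.464, 0.476 and 0.666, were less like the chain genes than the median gene was.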

How the data were processed

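The 9 RNA sequencing libraries were grouped by the sample labels into 4 groups of 2, 2, 2 and 3. The authors deposited FPKM values of 17596 genes, rounded to 2 decimals and already normalized to transcript length and mapped fragments. The submitters' processing notes name Bowtie2 and GRCm38 (mm10). The counting tool, annotation and strand setting are not given in the sources used here. The labels name a phenol-type reagent (TRNzol) for RNA extraction and the study's methods a column kit, and libraries were analysed by the sequencing institute. Depth was not derived here, and precision rests on 2 or 3 libraries per group. Low values repeated, as in S100a8 on day 3 (1.02 and 0.73 FPKM in Mb1Cre, 1.02, 0.44 and 0.15 FPKM in Mct1f/fMb1Cre libraries). They were not turned into read counts. The 10823 genes with a mean FPKM of 1 or more were tested on log2(FPKM + 1), which understates changes of low genes, with limma 3.58.1 in R 4.3.3 (1 mean per group, empirical Bayes with a trend, Benjamini-Hochberg adjustment over all tested genes). The log2 ratio of Cd74 to the chain genes, formed with the mean of their log2(FPKM + 1) values, was compared by an exact permutation test in Python 3.11.15. Data were also simulated for the day 3 comparison of genotypes, with 200 of 10823 genes changed. The changed genes were drawn from those above 5 FPKM in Mct1f/fMb1Cre cells of day 3. Of them, 99% were called at a log2 change of 1 and 100% at 2, and 5 unchanged genes were called. Changes below 1, such as those of the class II genes between the genotypes, were not simulated.

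The members and lists were chosen with earlier results of these data known. Named were all members, Slc16a1, the called genes of each list (up to 3 per direction with the largest change), genes whose role a result needed, leading markers, Ddx3y, and the 5 genes most like the chain genes. Dexi and Brd2 were added after their values were seen, because they overlap members. A marker gene is not reported here, and the sums and counts of its list leave it out. Promoter windows come from RefSeq on GRCm38.p6 and gene positions from GENCODE M21 on GRCm38. Alternatives were pseudocounts of 0.1 and 5, no filter or a mean of at least 5 FPKM, 3 other scalings, a replicate block, no trend, only the groups compared, other fold limits, and each library left out in turn.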

Additional observations from a re-analysis of the deposited data

Results flagged for a closer look

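The difference between the genotypes differed between the days, by the interaction of genotype and day in limma, in 2 of the 10 genes. For Ciita the interaction was 0.43 on the log2 scale (SE 0.0981, adjusted p = 0.0229): the genotype difference was 0.06 on day 0 and 0.49 on day 3, and all 3 Mct1f/fMb1Cre libraries of day 3 were above both Mb1Cre libraries. For H2-Oa the interaction was 0.32 (SE 0.0671, adjusted p = 0.0154): the genotype difference was -0.03 on day 0 and 0.29 on day 3, again with all 3 libraries above both. Both lay within the fold limit of 0.5 used for calls. Over the alternatives the interaction of Ciita ranged from 0.31 to 0.55 and kept an adjusted p under 0.05 in 12 of 18 settings, and that of H2-Oa ranged from 0.27 to 0.38 and kept it in 16 of 18.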

How the results depend on the processing

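Counts of called class II genes (0 for the genotypes on day 3, 0 on day 0, 0 for the interaction, 8 and 5 for activation in Mb1Cre and Mct1f/fMb1Cre cells) changed with scaling and fold limit. Scaling to a common total and median-of-ratios scaling each gave 1 for the genotypes on day 3 (Ciita), and median-of-ratios scaling gave 5 for activation in Mb1Cre cells. With no fold limit the counts were 5 on day 3, 2 for the interaction and 8 for activation in Mct1f/fMb1Cre cells, and with a log2 limit of 1 activation gave 2 and 2. Leaving out each library gave 0 to 1 on day 3, 0 to 1 for the interaction (1, Ciita, without Mb1Cre day 0 replicate 2), 7 to 8 for activation in Mb1Cre cells (7, without Ciita, when Mb1Cre day 0 replicate 1 was left out) and 5 to 5 in Mct1f/fMb1Cre cells. The ratio of H2-Oa to H2-DMa changed by -2.02 between the days in Mb1Cre libraries alone. Leaving out each library gave -1.91 to -1.84 for this ratio, -2.31 to -2.27 for H2-Ob to H2-DMa, and -0.07 to -0.03 for Cd74 to the chains.

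Signs turned only in differences that were not called. By median-of-ratios scaling H2-DMb2 with activation was 0.103 and 0.128, Ciita with activation in Mct1f/fMb1Cre cells 0.0948 and H2-Aa on day 0 0.0113. After scaling to a common total the interaction of H2-DMb1 was 0.00596. Leaving out single libraries turned some signs, with values on day 0 of -0.0247 to 0.0230 for H2-Aa (0.00505 in between), -0.0948 to 0.00818 for H2-Eb1, -0.0594 to 0.180 for Ciita, -0.0846 to 0.0271 for H2-Oa and -0.0140 to 0.111 for H2-DMb2, and in the interaction of -0.0747 to 0.0384 for H2-DMb1 and -0.0436 to 0.0816 for H2-DMb2 (-0.0343 in between). The cause was not tested.

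With the replicate number as a replicate block the counts were 0, 0, 0, 8 and 5, as without it, but the adjusted p rose above 0.05 for the interactions of Ciita (0.0696) and H2-Oa (0.0565) and for H2-Aa (0.0778), H2-Eb1 (0.0995) and H2-Ob (0.0710) on day 3. Deviations from group means correlated between -0.122 and 0.0642 for libraries with the same number. In groups of 2 libraries these deviations are mirror images, so the correlations cannot show whether the numbers pair the libraries. Nothing but the shared number is known to link them. With the numbers crossed between the days in Mb1Cre cells, an alternative chosen after seeing the data, 8 genes were called. Depth was not derived, so no limit from counting is given.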
